A study of Mus musculus and Macaca nemestrina with 20 samples.

Results

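The genes of leukotriene and prostaglandin synthesis and reception followed here in dorsal root ganglia (DRG) were Alox5, Alox5ap, Lta4h, Ltc4s, Cysltr1, Cysltr2, Ptgs1, Ptgs2, Ptges and Ptger3. They were taken by symbol from the gene tables, where all 10 genes were found among 29766 mouse genes, and all 10 in capitals among 35194 monkey genes. The series title places the study under chronic itch and natriuretic peptide B. Sensory neurons that serve skin and deeper tissue have their cell bodies in DRG, together with glia, vessels, connective tissue and resident immune cells, and the RNA was read from the whole frozen ganglion. In mice, 7 libraries labelled ADAM17 KO (called knockout here) were set against 7 control libraries labelled ADAM17 flox. ADAM17 is a cell-surface protease known for releasing TNF from cells. Batch 1 held knockout libraries 1 to 4 and flox libraries 1 to 3, and batch 2 held knockout libraries 5 to 7 and flox libraries 4 to 7. In pig-tailed monkeys (Macaca nemestrina), 3 libraries from DRG of skin treated with SADBE (squaric acid dibutyl ester, a contact sensitiser) were set against 3 from DRG of control skin given vehicle. The Cre driver, the deleted exons, the ages and sexes, and the number of animals behind a library are not given in the sources used here, and p-values therefore describe spread among libraries, which may be technical.

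Leukotrienes and prostaglandins are lipid mediators made from arachidonic acid, which phospholipases A2 cut from membranes. 5-lipoxygenase (Alox5), helped by its activating protein FLAP (Alox5ap), makes leukotriene A4. Lta4h turns leukotriene A4 into leukotriene B4, a neutrophil attractant, and Ltc4s joins it to glutathione to give leukotriene C4, the parent of the cysteinyl leukotrienes sensed by Cysltr1 and Cysltr2. On the other branch, the cyclooxygenases Ptgs1 and Ptgs2 make prostaglandin H2, Ptges turns it into prostaglandin E2, and Ptger3 is one of the prostaglandin E2 receptors. In mouse DRG, Cysltr2 is known as a gene of the small itch neurons that also express Nppb, called NP3 neurons, while 5-lipoxygenase and FLAP are best known from neutrophils, macrophages and mast cells.

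Library depth, with M for 1000000 estimated counts, was 46.9 to 52.1 M in flox batch 1, 30.9 to 36.0 M in flox batch 2, 12.1 to 14.7 M in knockout batch 1, 27.9 to 30.8 M in knockout batch 2, and 9.02 to 27.1 M in monkeys. Mitochondrial transcripts took 8.21% to 10.9% of counts in batch 1 and 0.734% to 1.76% in batch 2. Adam17 RNA did not separate the mouse groups: it was 25.2 CPM (counts per M, after TMM scaling of library size) on average in libraries labelled knockout and 25.1 in flox (log2 fold change 0.03 ± 0.18 SE, edgeR adjusted p = 0.930), so this level does not check the labels, and knockout means a library so labelled throughout. The Y-linked transcripts Ddx3y and Eif2s3y summed to 50.9 and 55.3 TPM in knockout libraries 6 and 7 and to at most 0.298 TPM in the other 12 mouse libraries. Neuronal markers were present in every library: the 8 pan-neuronal markers summed to between 3198 and 7215 TPM in mice, and 7 of them to between 1175 and 4573 TPM in monkeys. Marker sums here and below are of TPM (transcripts per M, scaled for transcript length) with every library brought to one total. Among the monkeys, vehicle library 1 stood apart, with a sum of 3391 TPM for neutrophil markers against 38.1 to 644 in the other 5 libraries 126 TPM for NP3 markers against 276 to 452, and the lowest pan-neuronal sum. SADBE libraries 2 and 3 were more alike than the other pairs within a monkey group, with a chi-square per gene of 29.0 against 297 to 559. Pairs within a mouse group, in the same or different batches, ranged from 22.1 to 981. Whether SADBE libraries 2 and 3 share an animal is not given.

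Of the 3 genes that changed in mice, 2 have a promoter window in the RefSeq table for GRCm38.p6, which covers 250 bases before to 50 after a start site for 8 of the 10 genes. They are Cysltr2 and Ptges, shown because they moved in opposite directions between the same libraries and their windows differ in base composition. The Cysltr2 window is chr14:73049065-73049364, minus strand, with 43.7% G and C, at the 5′ end of a gene that spans chr14:73025603-73049114 in GENCODE M21. The Ptges window is chr2:30903248-30903547, minus strand, with 60% G and C, and its start site lies inside the gene span chr2:30889471-30929863 of GENCODE M21. Capitals mark CCAAT (or its reverse complement) in Cysltr2 and GGGCGG in Ptges, read 5′ to 3′.
Cysltr2: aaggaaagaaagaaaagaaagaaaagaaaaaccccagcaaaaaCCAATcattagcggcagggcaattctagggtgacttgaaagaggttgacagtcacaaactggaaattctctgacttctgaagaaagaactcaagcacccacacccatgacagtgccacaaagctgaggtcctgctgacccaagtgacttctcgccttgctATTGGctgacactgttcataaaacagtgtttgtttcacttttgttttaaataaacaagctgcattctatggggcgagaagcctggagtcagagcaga
Ptges: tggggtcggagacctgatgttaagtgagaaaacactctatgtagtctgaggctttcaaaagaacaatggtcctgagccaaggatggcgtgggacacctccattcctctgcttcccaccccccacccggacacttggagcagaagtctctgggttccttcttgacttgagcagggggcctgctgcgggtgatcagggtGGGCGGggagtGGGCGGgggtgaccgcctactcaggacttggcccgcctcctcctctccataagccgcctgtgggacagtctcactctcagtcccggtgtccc
Cysltr2 held CCAAT at positions -207 and -47 and no GGGCGG, while Ptges held GGGCGG at -53 and -42 and no CCAAT, counted from the start site, on either strand. Over 32851 windows of the table, 37.4% held CCAAT and 35.7% held GGGCGG. Neither window held the other motifs searched: STAT (TTCNNNGAA, in 8.3% of windows), C/EBP (TTGCNNAA, 10.8%), PU.1 (GAGGAAGT, 3.2%), NF-kB (1.47%) and the TATA box (TATAAA, 13.6%). Among all 8 windows of the genes followed, CCAAT was in 2, GGGCGG in 4, C/EBP in 1 (Ptgs2), PU.1 in 1 (Ptgs1) and the other 3 motifs in 0. These are matches of letters, not sites of binding, and no match overlapped another in the windows shown.

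In mice, 3 of the 10 genes passed the test between genotypes: Cysltr2 and Alox5ap were higher in the libraries labelled knockout, and Ptges was lower. The test was edgeR's quasi-likelihood test on counts with batch in the model, and a gene was called when its p, adjusted over all 15654 genes tested by the Benjamini-Hochberg method, was under 0.05. Over all genes tested, 15.5% were called, 7.97% higher and 7.51% lower (1248 and 1175 genes, against 787 higher and 1764 lower with limma on rescaled TPM), and all 10 of the genes followed here passed the filter on low counts. The median log2 fold change of the 10 was 0.18, and that of all genes -0.01. Cysltr2 and Alox5ap were also the 2 of the 10 whose knockout and flox libraries did not overlap in either batch. This held for 5.49% of all genes tested, and with knockout higher for 3.25%. Knockout libraries 6 and 7 carried the Y-linked transcripts. Without them, the log2 fold changes were 1.74 for Cysltr2, 1.31 for Alox5ap and -1.14 for Ptges (edgeR adjusted p = 0.000895, 0.00111 and 0.0240). In batch 2, this left knockout library 5 alone to set against flox. Among the batch 2 knockouts, library 5 was highest for Cysltr2 (9.10 CPM) and Alox5ap (61.3 CPM) and lowest for Ptges (4.45 CPM). Whether the Y-linked libraries matter, apart from the weight this gave library 5, was not tested.

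**Figure D1:**
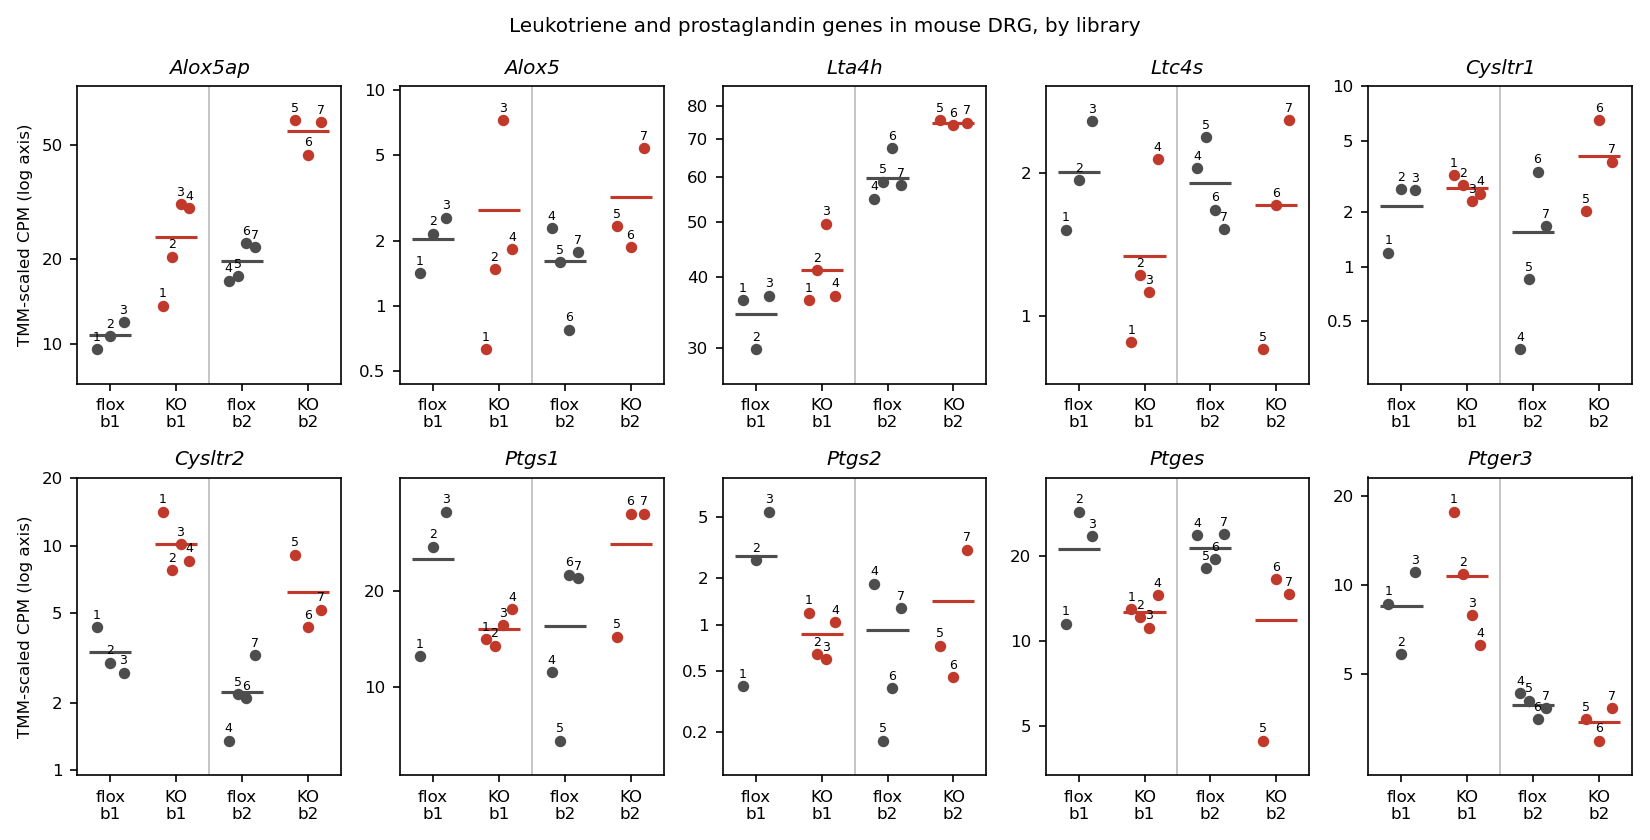
Level of each gene in the 14 mouse DRG libraries, as CPM after TMM scaling on a log axis; points are libraries with their number, lines are group means, b1 and b2 are the batches and KO is the group labelled knockout. Cysltr2 and Alox5ap sit higher in knockout within each batch, while Ptgs1 and Ptgs2 overlap between the genotypes in both batches.

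Alox5ap encodes FLAP, the membrane protein that presents arachidonic acid to 5-lipoxygenase, and spans chr5:149264767-149288153 on the plus strand of GRCm38. In batch 1 its level was 13.6, 20.3, 31.1 and 30.0 CPM in knockout libraries 1 to 4 and 9.59, 10.7 and 11.9 CPM in flox libraries 1 to 3. In batch 2 it was 61.3, 46.4 and 60.4 CPM in knockout libraries 5 to 7 and 16.7, 17.3, 22.7 and 21.9 CPM in flox libraries 4 to 7. Every knockout library lay above every flox library of its own batch, and flox batch 2 overlapped knockout batch 1 because the gene was higher in batch 2 in both genotypes. The difference was 2.52-fold (log2 fold change 1.33 ± 0.17 SE, edgeR adjusted p = 0.000133). In a whole ganglion, more cells of a type and more RNA per cell cannot be told apart.

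Markers of neutrophils moved with the genotype beside Alox5ap. Of 10 neutrophil markers, 9 rose in knockout, led in p by S100a8, S100a9 and Retnlg (log2 fold changes 3.12, 3.19 and 2.89). The summed neutrophil markers were 5670 to 19573 TPM in knockout and 670 to 2398 TPM in flox in batch 1, and 1340 to 2466 TPM in knockout and 129 to 272 TPM in flox in batch 2. The batches ran the other way for Alox5ap, which was higher in batch 2, where the neutrophil sum was lower in both genotypes. Of 10 monocyte and macrophage markers, 1 rose (Ly6c2, a marker of inflammatory monocytes, log2 fold change 1.97), and the sums were 104 to 157 TPM in knockout and 95.8 to 157 TPM in flox over both batches. No marker of either list was at 0 in all libraries of a group. The part of these cells in the level of Alox5ap was not tested.

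Alox5 encodes 5-lipoxygenase, the enzyme that FLAP serves. In knockout batch 1 it read 0.628, 1.47, 7.26 and 1.83 CPM, and in flox batch 1 1.42, 2.16 and 2.56 CPM. In batch 2 it read 2.35, 1.87 and 5.39 CPM in knockout and 2.30, 1.59, 0.774 and 1.77 CPM in flox. Knockout libraries 3 and 7 were high, knockout library 1 lay below every flox library and knockout library 5 just above the flox libraries of its batch, and the ranges overlapped in both batches. The log2 fold change over both batches, 0.72 ± 0.46 SE, did not pass (edgeR adjusted p = 0.305). Knockout libraries 3 and 7 also had the highest neutrophil sums of their batches, 19573 and 2466 TPM. Flox library 3 was likewise the highest flox library of batch 1 for both Alox5 and the neutrophil sum. In flox batch 2 it ran the other way: library 6 had the highest neutrophil sum, 272 TPM, and the lowest Alox5 level. How far neutrophils contribute to the level of Alox5 was not tested.

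Lta4h, the hydrolase that makes leukotriene B4, had the highest mean TPM of the 10 in flox DRG. It read 36.4, 41.2, 49.6 and 37.1 CPM in knockout and 36.4, 29.9 and 37.1 CPM in flox in batch 1. In batch 2 all 3 knockout libraries (75.4, 73.9 and 74.7 CPM) lay above the 4 flox libraries (54.9, 58.9, 67.5 and 58.0 CPM), while batch 1 overlapped. The log2 fold change of 0.29 ± 0.10 SE lay just outside the threshold (edgeR adjusted p = 0.0525), and the gene was called in 6 of 26 alternative fits: without knockout library 1 (adjusted p = 0.0476) or 4 (0.0354), with DESeq2 (0.0174), with limma-voom (0.0459), with size factors in place of TMM (0.0443) and with a stricter filter (0.0487). Ltc4s, the synthase of leukotriene C4, read 0.850 to 2.59 CPM in knockout and 1.52 to 2.58 CPM in flox, and its log2 fold change of -0.37 ± 0.32 SE did not pass (adjusted p = 0.459). Its counts were low, between 14 and 61 in knockout libraries.

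Mast cells, eosinophils and basophils are the other cells best known for Ltc4s. Of 7 mast cell markers tested, Hdc rose and Cma1 and Mcpt4 fell (log2 fold changes 2.26, -2.70 and -2.38), and the sums overlapped, at 10.1 to 31.5 TPM in knockout and 13.5 to 35.6 TPM in flox. Of 3 eosinophil and basophil markers tested, Prg2 rose (log2 fold change 1.36), with sums of 18.2 to 38.1 TPM in knockout and 11.7 to 27.5 TPM in flox in batch 1, and, without overlap, 17.5 to 32.3 TPM and 4.01 to 10.9 TPM in batch 2. Of the mast cell list, 1 marker was at 0 in all knockout libraries of batch 2. The part of these cells in the level of Ltc4s was not tested.

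Cysltr2, the receptor for leukotrienes C4 and D4, showed the largest log2 fold change among the 10 over both batches. In batch 1 it read 14.1, 7.76, 10.2 and 8.57 CPM in knockout libraries 1 to 4 and 4.34, 3.02 and 2.73 CPM in flox libraries 1 to 3. In batch 2 it read 9.10, 4.34 and 5.18 CPM in knockout libraries 5 to 7 and 1.36, 2.18, 2.10 and 3.27 CPM in flox libraries 4 to 7. The 2 groups did not overlap, though knockout library 6 and flox library 1, of different batches, lay next to each other. The difference was 2.90-fold (log2 fold change 1.54 ± 0.25 SE, edgeR adjusted p = 0.000735) and rested on 108 to 225 counts in knockout and 39 to 251 in flox.

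Markers of the NP3 neurons, the cells in which Cysltr2 is known, moved the same way, and Cysltr2 was not on that list. Of 7 NP3 markers, 6 rose in knockout, led in p by Nppb, Il31ra and Osmr (log2 fold changes 1.66, 1.79 and 1.29), and Sst, named after its value was seen, stood at -0.35 without passing. The summed NP3 markers were 477 to 547 TPM in knockout and 275 to 294 TPM in flox in batch 1, and 199 to 230 TPM in knockout and 91.6 to 96.7 TPM in flox in batch 2. Mean Cysltr2 and the NP3 sum were both lower in batch 2 than in batch 1 in each genotype. Of 8 pan-neuronal markers 4 rose, and of 7 peptidergic nociceptor markers 4 rose. The part of NP3 neurons in the level of Cysltr2 was not tested.

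Cysltr1, the other cysteinyl leukotriene receptor, read 3.20, 2.82, 2.31 and 2.54 CPM in knockout and 1.19, 2.68 and 2.65 CPM in flox in batch 1. In batch 2 it read 2.02, 6.47 and 3.82 CPM in knockout and 0.348, 0.853, 3.35 and 1.68 CPM in flox. The groups overlapped in both batches, and its log2 fold change of 0.86 ± 0.43 SE did not pass (edgeR adjusted p = 0.188), though it was called higher by limma on log2(TPM + 1) (0.68, adjusted p = 0.0419). Its estimated counts were not whole numbers, and counts and TPM did not run in parallel: knockout libraries 1 and 2 had 51.4 and 44.1 counts but 1.66 and 0.646 TPM.

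Ptges, the inducible synthase of prostaglandin E2, was the one gene of the 10 that was called lower. In batch 1 it read 13.003, 12.2, 11.2 and 14.5 CPM in knockout libraries and 11.5, 28.7 and 23.4 CPM in flox libraries, where flox library 1 lay among the knockout values. In batch 2 it read 4.45, 16.6 and 14.7 CPM in knockout and 23.7, 18.1, 19.5 and 23.9 CPM in flox, and these did not overlap. The difference was 1.73-fold lower in knockout (log2 fold change -0.79 ± 0.25 SE, edgeR adjusted p = 0.0418). The call is close to the threshold: it was kept in 4 of the 14 fits that left out 1 library and lost in the fits without knockout library 1, 2, 3, 5 or 7 or flox library 2, 3, 4, 6 or 7, with adjusted p between 0.0138 and 0.104 over the 14.

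Fibroblast markers fell beside Ptges: 5 of 6 were lower in knockout, led in p by Col1a1, Col1a2 and Col3a1 (log2 fold changes -2.04, -1.61 and -1.58). The summed fibroblast markers were 1007 to 2007 TPM in knockout and 2026 to 3825 TPM in flox in batch 1, and 989 to 1900 TPM in knockout and 2689 to 3612 TPM in flox in batch 2. Flox libraries 1 and 5 and knockout library 5, the lowest of their groups for Ptges in their batches, were also the lowest for the fibroblast sum there (2026, 2689 and 989 TPM). In knockout batch 1 the 2 differed: library 3 was the lowest for Ptges and library 1 for the fibroblast sum. All 6 Schwann cell markers and 1 of 6 endothelial and mural markers (Acta2) also fell, and 1 of 6 satellite glia markers (Cdh19) rose. Neither the Schwann cell sum nor the endothelial and mural sum overlapped between genotypes in either batch. The latter was 39.2 to 63.7 TPM in knockout and 70.9 to 122 TPM in flox in batch 1. In batch 2 it was 52.3 to 69.4 TPM and 72.3 to 96.2 TPM. Flox library 1 and knockout library 5 were lowest there too, but flox library 5 was not. The part of these cells in the level of Ptges was not tested.

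Ptgs1 and Ptgs2, the constitutive and the inducible cyclooxygenase, did not pass in either direction. Ptgs1 read 14.1, 13.5, 15.6 and 17.5 CPM in knockout and 12.5, 27.4 and 35.2 CPM in flox in batch 1, but 14.4, 34.8 and 34.8 CPM in knockout and 11.1, 6.80, 22.4 and 21.9 CPM in flox in batch 2. Flox libraries 2 and 3 and knockout libraries 6 and 7 were the high ones, so the sign of the difference turned between batches. The log2 fold change over both was 0.07 ± 0.35 SE (edgeR adjusted p = 0.921). Knockout libraries 6 and 7 were also those with the Y-linked transcripts, and knockout library 5 lay within the flox range of batch 2. Whether the Y-linked libraries matter for Ptgs1 was not tested. Ptgs2 rested on few counts, with 9 to 72 counts in knockout and 6 to 300 in flox libraries, and 5.38 CPM in flox library 3 was its highest level. Its log2 fold change was -0.53 ± 0.68 SE (adjusted p = 0.634).

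Ptger3, the EP3 receptor of prostaglandin E2, is known in sensory neurons. It read 17.7, 10.9, 7.92 and 6.27 CPM in knockout and 8.66, 5.83 and 11.05 CPM in flox in batch 1, and 2.97 to 3.82 CPM in knockout and 3.51 to 4.31 CPM in flox in batch 2. The genotypes overlapped in both batches (log2 fold change 0.08 ± 0.24 SE, edgeR adjusted p = 0.857), while the levels of batch 1 all lay above those of batch 2.

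Fitted within each batch, Cysltr2 was higher by 1.57 on the log2 scale in batch 1 (edgeR adjusted p = 0.0328) and by 1.48 in batch 2 (0.0343). Alox5ap was higher by 1.11 in batch 1, which did not pass (adjusted p = 0.0895), and by 1.52 in batch 2 (0.000781). Ptges stood at -0.78 and -0.84 and passed in neither batch (adjusted p = 0.217 and 0.164). Thus 1 of the 10 genes was called in batch 1, and it was higher, where 1.8% of all genes tested were called and 1.12% were called higher. In batch 2, 2 were called, both higher, where 13.2% of all genes tested were called and 7.22% were called higher. The batch 2 call of Cysltr2 was lost without knockout library 5 or 7 or flox library 4, 5 or 6 (adjusted p 0.0421 to 0.141 over the 7 fits), and the batch 1 call without knockout library 1, 2 or 3 or flox library 2 or 3 (0.0255 to 0.178). Without flox library 1, 4 genes were called in batch 1: Cysltr2 higher, and Ptges, Ptgs1 and Ptgs2 lower. The 3 lower genes stood at log2 fold changes of -1.08, -1.09 and -2.25 (edgeR adjusted p = 0.0213, 0.0213 and 0.0439). The share of all genes called in that batch 1 fit is not given here. Over both batches, leaving out flox library 1 took the calls among all genes from 2423 to 2774.

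No gene of the 10 passed the test of the difference between batches, in which edgeR called 1.03% of all genes tested and DESeq2 called 0 of the 10. An unadjusted edgeR p under 0.05 was found for 2169 of all 15654 genes tested and for 1 of the 10. That gene was Ptgs1, at -0.76 in batch 1 and 0.85 in batch 2, a difference of 1.57 ± 0.58 SE (unadjusted p = 0.0169, adjusted p = 0.222). Ptgs2 stood at -1.74 and 0.62, a difference of 2.31 ± 1.23 SE (adjusted p = 0.442). For Cysltr2, Alox5ap and Ptges the differences between batches were -0.12 ± 0.50, 0.37 ± 0.34 and -0.10 ± 0.50 SE.

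**Figure D2:**
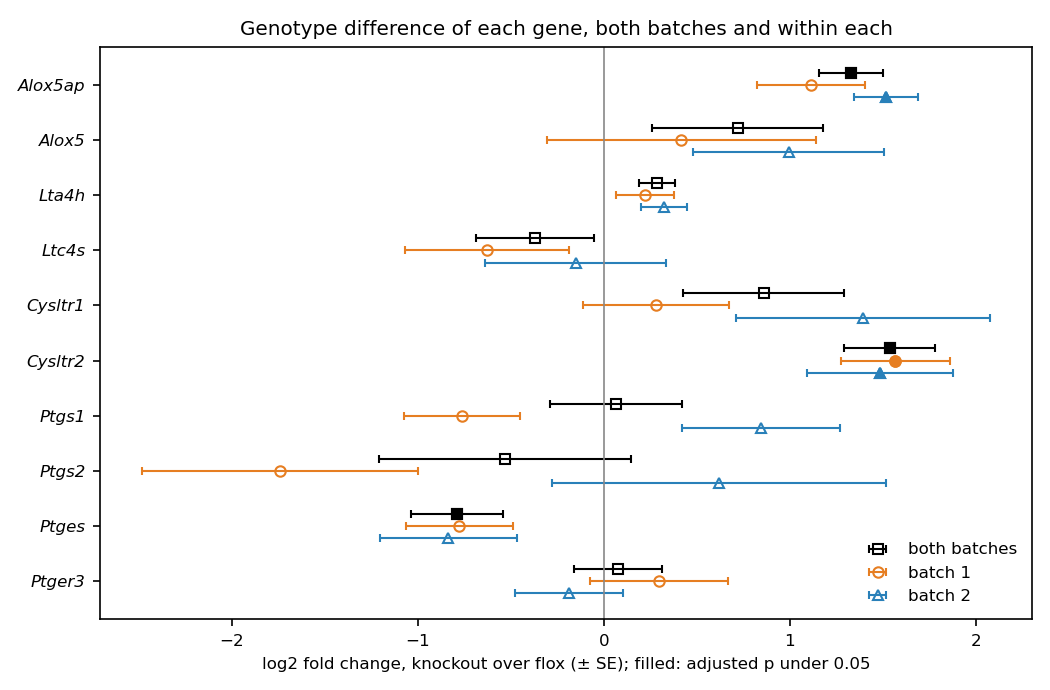
Log2 fold change of each gene between mouse libraries labelled knockout and flox, with 1 SE on each side, for both batches together (squares), batch 1 (circles) and batch 2 (triangles); filled symbols passed an edgeR adjusted p of 0.05. Cysltr2, Alox5ap and Ptges keep their side of 0 in both batches, and Ptgs1 and Ptgs2 lie on opposite sides in the 2 batches.

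Around these genes, 56 other genes of the eicosanoid pathway were read from 6 lists; 48 passed the filter in mice, and 7 of the 48 were called, 5 higher and 2 lower. The split was 5 and 6 with limma on rescaled TPM, 4 and 5 without knockout libraries 6 and 7, and 5 and 5 without knockout library 6. The 7 are 14.6% of those tested, near the 15.5% of all genes. The median log2 fold change of all 48 tested was -0.08. The genes next to the cysteinyl leukotriene receptors and FLAP are described first.

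Ggt5, which trims leukotriene C4 to leukotriene D4, a ligand of Cysltr2, had the lowest p of the pathway genes. It read 10.5, 10.2, 11.9 and 13.2 CPM in knockout and 4.72, 4.12 and 3.59 CPM in flox in batch 1, and 19.4, 18.9 and 16.9 CPM in knockout and 5.49, 3.71, 6.42 and 7.37 CPM in flox in batch 2. The 7 knockout libraries all lay above the 7 flox libraries, a 2.97-fold difference (log2 fold change 1.57 ± 0.16 SE, edgeR adjusted p = 1.47e-05). Of the 15 genes of conversion, breakdown and transport tested, Ggt5 and Cyp4f18, a cytochrome P450 that inactivates leukotriene B4 in neutrophils, were called, both higher. Cyp4f18 read 3.08 to 7.08 CPM in knockout and 0.939 to 2.77 CPM in flox, without overlap (log2 fold change 1.62 ± 0.30 SE, adjusted p = 0.00244).

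Ltb4r1, the high-affinity leukotriene B4 receptor of neutrophils, read 1.76, 3.01, 6.14 and 3.25 CPM in knockout and 0.830, 0.410 and 1.04 CPM in flox in batch 1, and 1.42, 2.09 and 2.08 CPM in knockout and 0.556, 0.471, 0.548 and 0.622 CPM in flox in batch 2. All knockout libraries lay above all flox libraries, a 3.97-fold difference (log2 fold change 1.99 ± 0.34 SE, edgeR adjusted p = 0.00133), from 16 to 93 counts a library. It was 1 of 2 other leukotriene receptors tested. The highest value was in knockout library 3, which also had the highest neutrophil sum. In batch 2, knockout libraries 6 and 7 had nearly equal levels at neutrophil sums of 1340 and 2466 TPM. The part of neutrophils in the levels of Ltb4r1 and Cyp4f18 was not tested.

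On the prostaglandin side, Ptgdr, a prostaglandin D2 receptor, was 1 of 7 other prostanoid receptors tested and the 1 called. It was lower in knockout, at 28.4, 34.0, 23.1 and 16.3 CPM against 53.1, 32.6 and 43.5 CPM in batch 1 and at 29.8, 25.1 and 33.6 CPM against 50.9, 63.6, 40.6 and 55.0 CPM in batch 2 (log2 fold change -0.79 ± 0.16 SE, edgeR adjusted p = 0.00431). Knockout library 2 lay just above flox library 2, and batch 2 did not overlap. Ptges3, a cytosolic prostaglandin E synthase better known as the Hsp90 cochaperone p23, was the 1 called of 7 other prostanoid synthases (log2 fold change 0.64 ± 0.13 SE, adjusted p = 0.00503). Its level differed far more by batch than by genotype, with 228 to 309 CPM in batch 1 and 1244 to 3324 CPM in batch 2.

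Of 13 phospholipase and arachidonate release genes tested, 2 were called. Pla2g4a, the cytosolic phospholipase A2 that supplies both branches, was lower in knockout (log2 fold change -1.01 ± 0.31 SE, edgeR adjusted p = 0.0400). It read 4.94 to 6.91 CPM in knockout and 7.47 to 26.4 CPM in flox in batch 1, but 6.11 to 16.8 CPM and 11.9 to 24.3 CPM, overlapping, in batch 2. Pla2g4e, a phospholipase A2 family member that makes N-acyl phospholipids, was higher (log2 fold change 2.54 ± 0.73 SE, adjusted p = 0.0285), carried by knockout libraries 3, 6 and 7 at 9.70, 8.98 and 12.4 CPM, while the other 4 read 0.942 to 1.43 CPM and flox 0.0696 to 1.68 CPM. Both calls depended on single libraries: Pla2g4a was kept in 5 and Pla2g4e in 9 of the 14 fits that left out 1 library, and Pla2g4e without libraries 6 and 7 was at 1.43 (adjusted p = 0.265). Among 4 other lipoxygenases tested no gene was called by edgeR and none had an unadjusted p under 0.05, the lowest p being that of Aloxe3 (log2 fold change -0.91 ± 0.67 SE, adjusted p = 0.379).

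**Figure D3:**
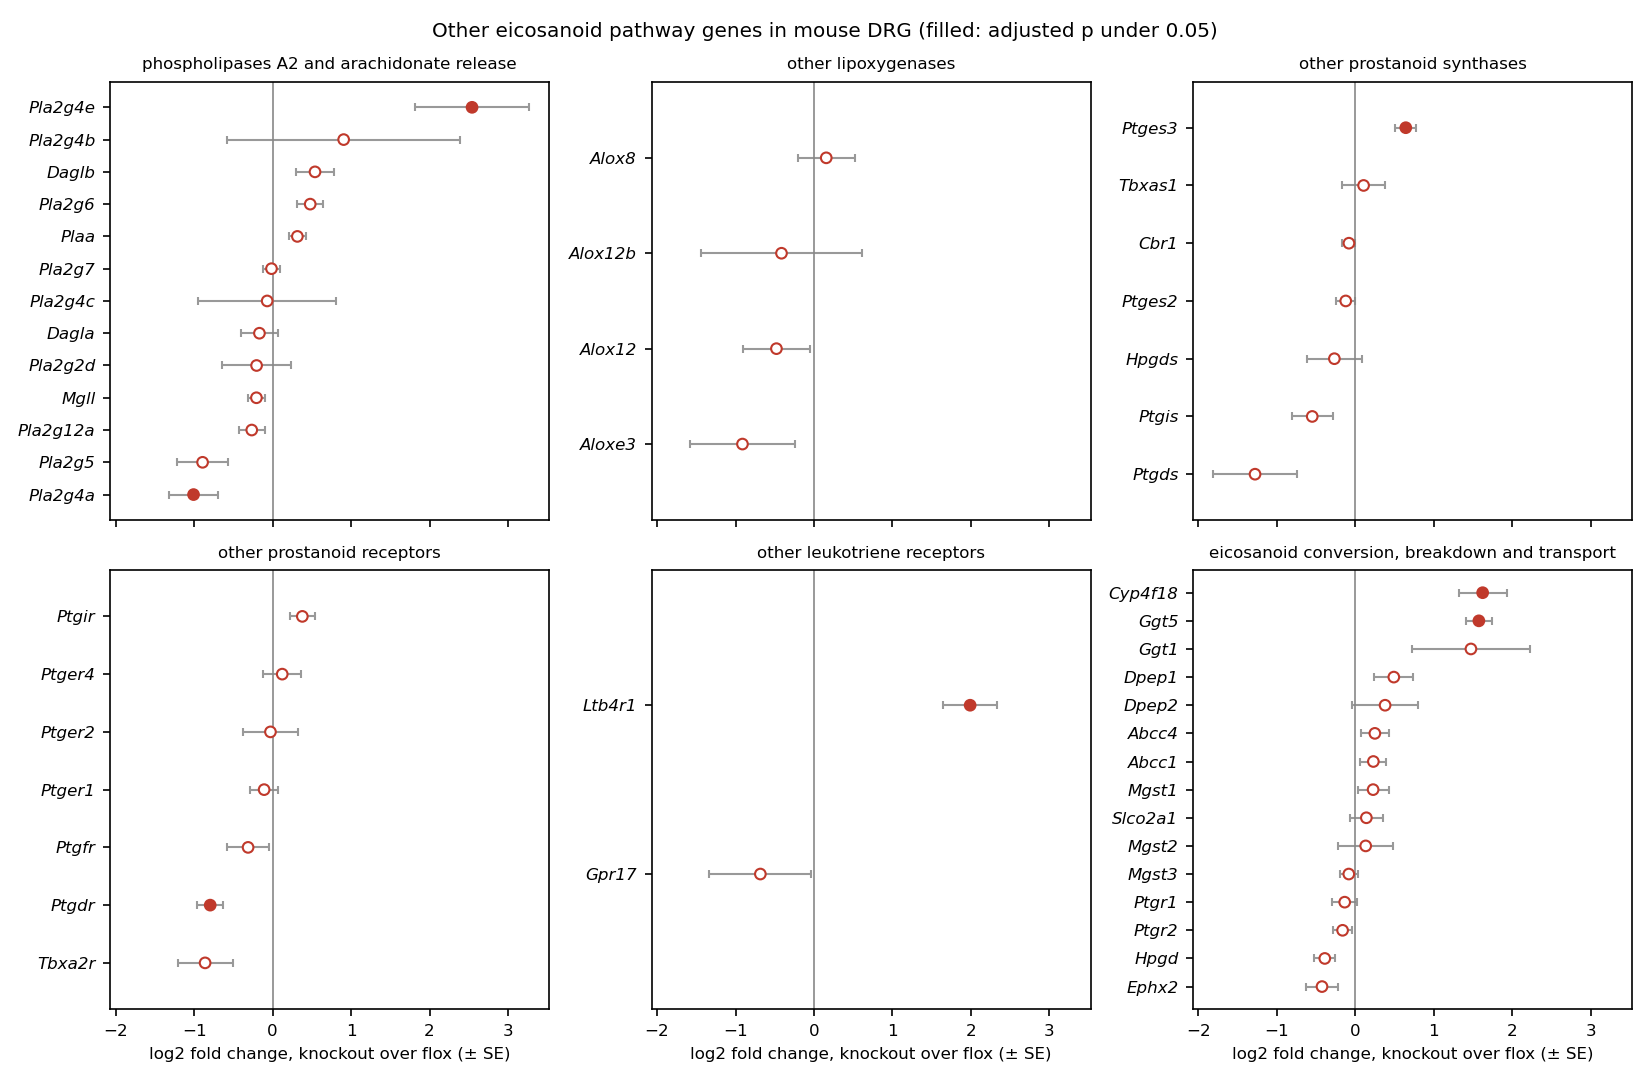
Log2 fold change between mouse libraries labelled knockout and flox for the 48 other eicosanoid pathway genes tested, in 6 lists, with 1 SE on each side; filled symbols passed an edgeR adjusted p of 0.05. The called genes lie on both sides of 0, with Ltb4r1, Ggt5 and Cyp4f18 well to the right.

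For each of the 3 called genes, the 3 genes with the most similar course were found by Pearson's r of log2 CPM over the 14 libraries with batch means removed, among 13627 genes whose mean TPM reached 1. The r values contain the genotype difference itself and are given as a description. Cysltr2 was most like Tecta (r = 0.965), Slc10a6 (0.961) and Lgals9 (0.952). Alox5ap was most like Traf3ip3 (0.974), Kcne3 (0.959) and Mmp8 (0.959), the last of which is a collagenase stored in neutrophil granules and one of the neutrophil markers. Ptges was most like Pdgfrl (0.958), Bace2 (0.947) and Foxc1 (0.936).

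The order of the genes by level was read from TPM, which is scaled for transcript length, in control libraries. In flox batch 2 the means were 38.2 ± 4.54 TPM for Lta4h, 34.3 ± 6.18 for Alox5ap, 8.55 ± 1.42 for Ptges, 7.52 ± 4.10 for Ptgs1, 4.71 ± 1.04 for Ltc4s, 2.47 ± 0.211 for Ptger3, 1.72 ± 0.670 for Cysltr2, 0.943 ± 0.481 for Alox5, 0.677 ± 0.629 for Cysltr1 and 0.284 ± 0.171 for Ptgs2 (SD, n = 4). Neighbours in this order overlapped in mean ± SD, except that Alox5ap stood clear of Ptges and Ltc4s stood clear of Ptger3. Lta4h stood at percentile 79.4 and Ptgs2 at 4.58 of the genes tested. In flox batch 1, where the deposited TPM columns had smaller totals, the same 2 genes led at 18.2 ± 4.78 and 15.4 ± 3.06 TPM (SD, n = 3), followed by Ptgs1 at 10.2 ± 5.03 and Ptges at 7.71 ± 2.54, and Ptgs2 and Cysltr1 were again the lowest. In both batches of flox libraries, mean TPM of Alox5ap was more than 10 times that of Alox5.

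Monkey control DRG had another order, from tables with their own annotation. The vehicle means were 51.8 ± 19.5 TPM for ALOX5AP, 40.3 ± 11.5 for PTGES, 25.7 ± 2.74 for ALOX5, 25.0 ± 10.1 for LTA4H, 9.81 ± 5.59 for LTC4S, 4.07 ± 1.86 for CYSLTR2, 1.97 ± 0.945 for PTGER3, 0.888 ± 0.488 for PTGS1, 0.761 ± 0.787 for CYSLTR1 and 0.150 ± 0.114 for PTGS2 (SD, n = 3). Neighbours in this order overlapped in mean ± SD, except that PTGES stood just clear of ALOX5. ALOX5 stood at percentile 78.3 of the genes tested in monkeys, and Alox5 at 14.9 in mouse flox batch 2. PTGS1 stood at 13.3 in monkeys, and Ptgs1 at 60.1 in mouse flox batch 1 and at 50 in flox batch 2. The species were not tested against each other, since they differ in annotation, preparation and normalisation.

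**Figure D4:**
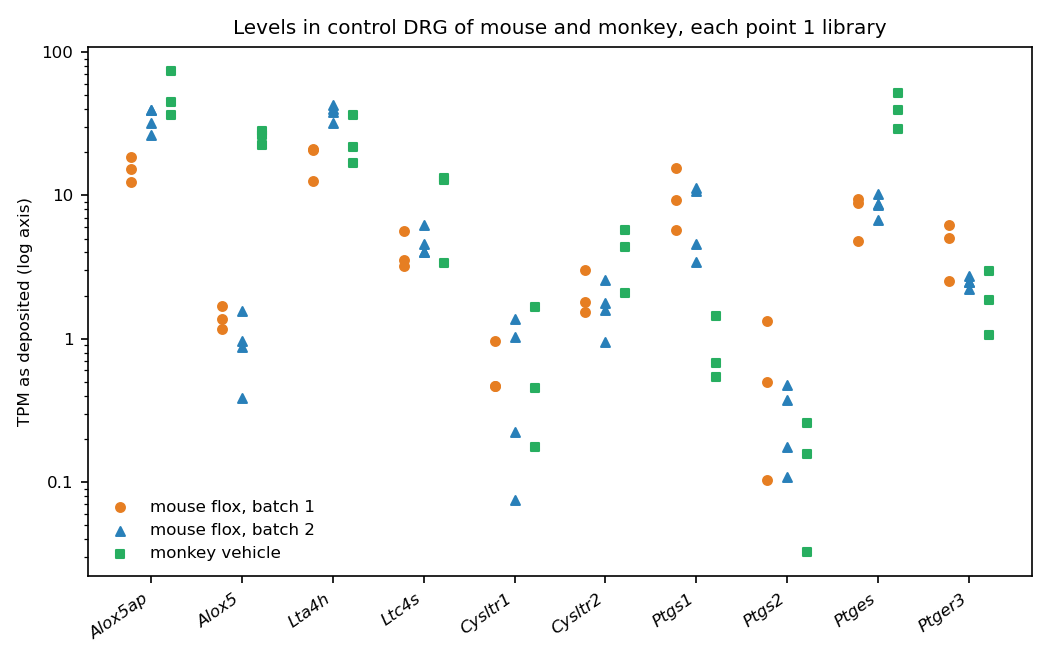
Deposited TPM of each gene in control DRG on a log axis, each point 1 library: mouse flox batch 1 (circles), mouse flox batch 2 (triangles) and monkey vehicle (squares). Alox5 lies near 1 TPM in mice and between 22.7 and 28.0 TPM in monkeys, and Ptgs1 lies higher in mice.

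In monkeys the comparison was between DRG of SADBE-treated and of vehicle-treated skin, and 9 of the 10 genes passed the filter on low counts; PTGS2, with at most 15 counts in a library, did not. No gene of the 9 was called by edgeR or by DESeq2, and none had an unadjusted p under 0.05. Over all 17988 genes tested, 0% were called by edgeR, 550 had an unadjusted p under 0.05, and DESeq2 called 25. No gene of the 9 had CPM ranges that did not overlap between groups, against 9.18% of all genes tested.

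PTGES, the synthase of prostaglandin E2, spanned the widest range of TPM. It read 52.2, 29.2 and 39.6 TPM in vehicle libraries 1 to 3 and 9.63, 232 and 159 TPM in SADBE libraries 1 to 3. SADBE library 1 lay below and libraries 2 and 3 above all vehicle libraries, and the log2 fold change was 1.73 ± 0.94 SE (edgeR adjusted p = 0.999). The fibroblast sum was likewise lowest in SADBE library 1, at 303 TPM, against 1156 and 1418 TPM in SADBE libraries 2 and 3, but vehicle library 1 had the highest, 2373 TPM. The endothelial and mural sum was also lowest in SADBE library 1, at 134 TPM, against 204 to 538 TPM in vehicle. It was highest in SADBE libraries 2 and 3, at 763 and 1009 TPM, though PTGES was higher in library 2. The part of fibroblasts or of endothelial and mural cells in the level of PTGES was not tested. PTGS1, the constitutive cyclooxygenase, stood at 0.21 ± 0.65 SE.

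The leukotriene synthesis genes overlapped between the groups. ALOX5AP read 73.8, 44.8 and 36.7 TPM in vehicle and 14.6, 37.6 and 50.9 TPM in SADBE libraries (log2 fold change -0.61 ± 0.57 SE). The highest value belonged to vehicle library 1, the one with the highest neutrophil sum. ALOX5 read 22.7, 28.0 and 26.5 TPM in vehicle and 35.2, 28.9 and 37.5 TPM in SADBE libraries, where the TPM did not overlap but the CPM did, and its log2 fold change on counts was 0.37 ± 0.38 SE. LTA4H stood at -0.42 ± 0.50 SE and LTC4S at 0.53 ± 0.71 SE.

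The receptors were low. CYSLTR2 read 4.35, 5.77 and 2.09 TPM in vehicle and 4.22, 5.01 and 3.77 TPM in SADBE libraries (log2 fold change -0.48 ± 0.61 SE). CYSLTR1 had 96, 17 and 4 counts in vehicle and 0, 0 and 10 in SADBE libraries, and most of its counts came from vehicle library 1. Its log2 fold change of -2.69 ± 1.43 SE was the largest in size among the 9 genes and did not pass (edgeR adjusted p = 0.999), and it was -1.35 without vehicle library 1. PTGER3 had 128, 34 and 20 counts in vehicle and 0, 20 and 17 in SADBE libraries (log2 fold change -1.15 ± 1.23 SE).

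Of the other pathway genes, 37 were tested in monkeys and edgeR and DESeq2 called 0; 2 had an unadjusted p under 0.05. PLA2G4C, a cytosolic phospholipase A2, read 7.87, 95.0 and 49.1 CPM in vehicle and 4.84, 10.6 and 9.78 CPM in SADBE libraries (log2 fold change -2.60 ± 0.82 SE, edgeR adjusted p = 0.999), and vehicle library 1 lay among the SADBE values. PTGIR, the prostacyclin receptor, read 13.7, 22.7 and 16.2 CPM in vehicle and 44.1, 37.6 and 41.3 CPM in SADBE libraries, without overlap (log2 fold change 1.22 ± 0.41 SE, edgeR adjusted p = 0.999). The lowest p of the other 4 lists belonged to ALOX15 (1.11), PTGDS (1.57), OXGR1 (0.47) and MGST1 (-1.30 on the log2 scale). PTGDS, the brain-type prostaglandin D synthase, ranged from 48.8 CPM in SADBE library 1 to 2289 CPM in SADBE library 3.

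**Figure D5:**
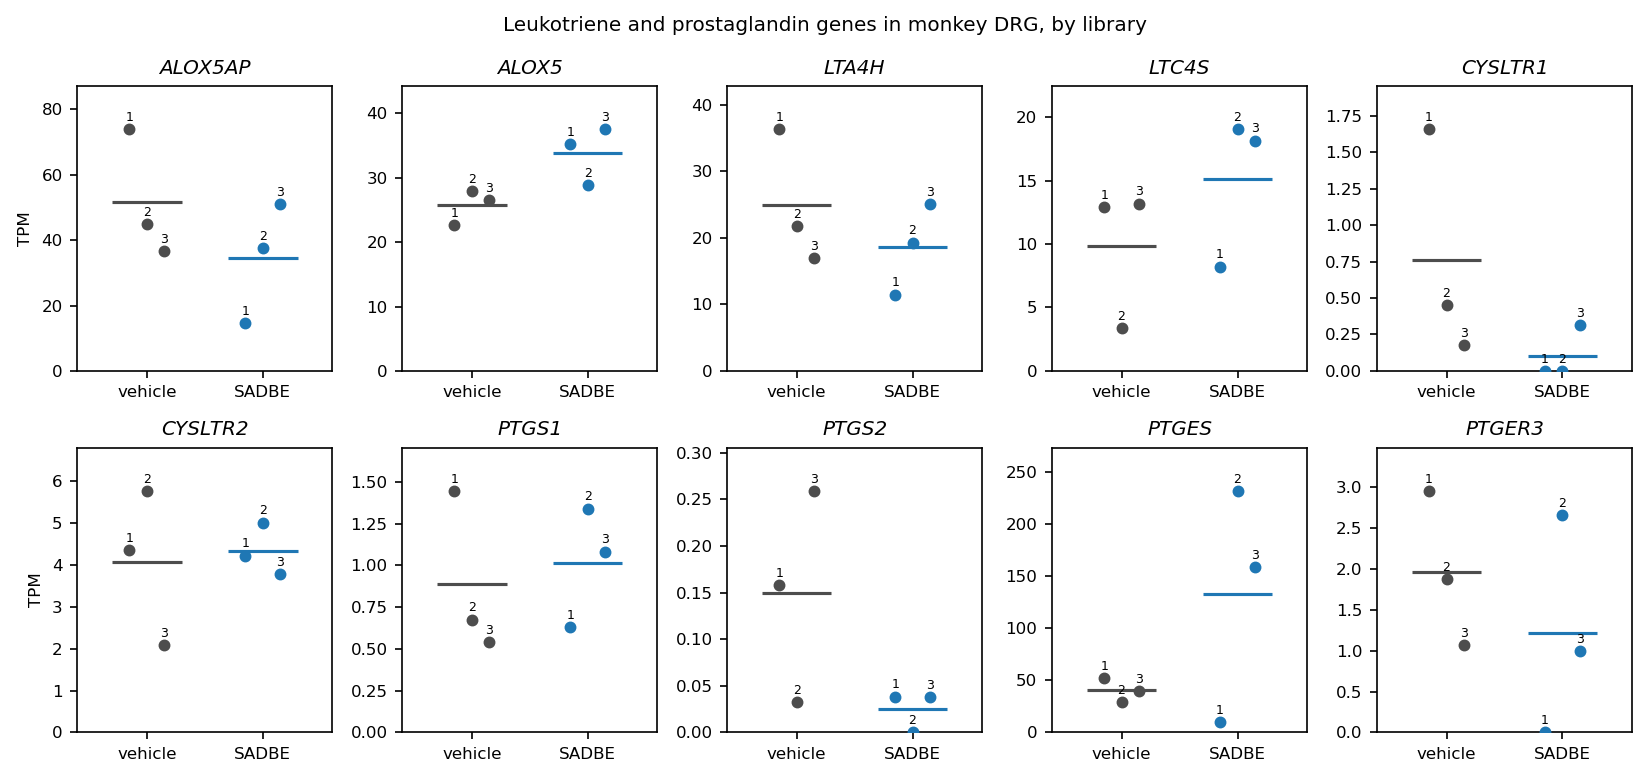
Deposited TPM of each gene in the 6 monkey DRG libraries; points are libraries with their number and lines are group means. SADBE libraries 2 and 3 lie high and library 1 low for PTGES, and vehicle library 1 is the highest for ALOX5AP, LTA4H, CYSLTR1, PTGS1 and PTGER3.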

How the data were processed

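Total RNA of fresh frozen DRG was sequenced, per the labels' protocols, in 14 mouse and 6 monkey libraries. The authors deposited estimated counts per gene and TPM, scaled for transcript length, per gene. kallisto and the build GRCm38 are named on the samples of both species, per the submitters' processing notes. The version, the strand setting and the monkey transcriptome are not given in the sources used here. Estimated counts can be fractions, since reads shared by similar transcripts are split. The deposited TPM columns did not all reach the same total in mice and were lower in batch 1, so marker sums use rescaled columns.

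A mouse row that names no gene (0.0785% to 0.186% of counts) was left out. Estimated counts were rounded and tested with edgeR 4.0.16 in R 4.3.3: filterByExpr (minimum count 10, total 15), TMM scaling, robust quasi-likelihood test, batch as a term in mice, Benjamini-Hochberg adjusted p under 0.05. SE was the size of the log2 fold change divided by the root of F. CPM are TMM-scaled. The code was tested on simulated data. Alternatives used DESeq2 1.42.0, limma 3.58.1 on log2(TPM + 1) or log2(TPM + 0.1), other scalings and filters, thinned counts and left-out libraries. The main fits did not pair libraries by replicate number.

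The genes and lists were chosen with earlier results of these data known. Named were the 10 genes, each list's called genes (up to 4, otherwise that of lowest p), up to 3 called markers a list, and 3 genes most like each called gene. Motifs were searched in RefSeq promoter windows of GRCm38.p6, and gene spans come from GENCODE M21.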

Additional observations from a re-analysis of the deposited data

How the results depend on the processing

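Cysltr2 and Alox5ap were called in all 26 alternative fits over both batches (adjusted p at most 0.00646 and 0.0478), and Ptges in 11. Over all genes, 2423 calls became 564 without the batch term and 1587 to 3108 with 1 library left out, the lowest without knockout library 5. The 7 called pathway genes became 12 with DESeq2, 4 without the batch term, 11 with limma on rescaled TPM and 5 to 10 with 1 library left out. Of all 15654 genes tested, DESeq2 called 3310 and limma on rescaled TPM called 2551. The median log2 fold change of all mouse genes was -0.07 with limma on rescaled TPM and -0.01 with edgeR. Lta4h was called in 6 and Cysltr1 in 1 of the 26. Within batch 1, calls among the 10 genes were 2 with DESeq2 and 0 to 4 with 1 library left out, and within batch 2 they were 1 to 2. The shares of all genes called in these alternative fits within a batch are not given here. The monkey comparison gave 25 calls with DESeq2. Low counts limit the precision of Ptgs2, Cysltr1, Alox5, Ltc4s and CYSLTR1, whose lowest library counts were 6, 9.65, 10, 14 and 0. Libraries with the same number did not deviate together (r between -0.13 and 0.147 in mice and -0.312 and 0.233 in monkeys, with 2 of 7 and 1 of 3 knockout or SADBE libraries most like their own number). With 3 libraries a group, the monkey values cannot show whether libraries of the same number share an animal. With a replicate block, 2103 genes and 2 of the 10 were called (Ptges at -0.84, edgeR adjusted p = 0.0591), and 0 in monkeys. With SADBE libraries 2 and 3 summed as 1 library, an alternative chosen after seeing the data, 0 genes were called.

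Signs of log2 fold changes turned for values that had passed no test, and the cause was not tested. Over both batches, Ptgs1 ranged from -0.11 to 0.28 with 1 library left out, below 0 without knockout library 6 or 7 or flox library 1, 4 or 5, and was -0.52 without knockout libraries 6 and 7. Ptger3 ranged from -0.11 to 0.15, below 0 without knockout library 1 or flox library 2, and was -0.065 with thinned counts and -0.015 with limma on rescaled TPM. Ptgs2 was 0.064 with the replicate block. In batch 1, with 1 library left out, Cysltr1 ranged from -0.019 to 0.47, Alox5 from -0.67 (without knockout library 3) to 0.77 and Ptger3 from -0.039 to 0.54, and Alox5 was -0.097 with limma-voom. In batch 2, Ltc4s ranged from -0.56 to 0.17 (without knockout library 5) and Ptgs2 from -0.61 (without knockout library 7) to 1.20. The difference between batches ranged from -0.50 to 0.14 for Cysltr2, from -0.063 to 1.64 for Alox5 and from -0.42 to 0.29 for Ptges. In monkeys, CYSLTR2 ranged from -0.76 to 0.23 (without vehicle library 2) and was 0.14 or 0.19 with limma on log2(TPM + 1) or log2(TPM + 0.1). PTGS1 ranged from -0.11 to 0.75, below 0 without vehicle library 2 or SADBE library 2, and was -0.019 with SADBE libraries 2 and 3 summed.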
